A study of Sparus aurata with 30 samples.

Results

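The diet response of the liver was set against that of the intestine in the gilthead sea bream, Sparus aurata, with 20 of the series' 30 libraries. The comparison took 5 libraries from each of 4 groups: liver of fish fed brewer's spent dry yeast (SDY), liver of control-fed fish, intestine of SDY-fed fish and intestine of control-fed fish. The SDY diet held 30% spent dry yeast, the yeast left over from brewing, which took the place of 10% of fish meal and 31.4% of plant protein in the control feed. No genotype, strain or age is given in the labels, and both diets were sampled as specimens picked at random. Tanks are not named, so the p-values measure the spread between these specimens, and a shared tank cannot be told apart from the diet. The labels do not state whether equal replicate numbers in liver and intestine mark 1 animal.

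The intestine digests and absorbs the feed, and the liver receives what it absorbs through the portal blood, stores or burns it, and makes most plasma proteins. Both organs turn on immediate-early genes, which encode short-lived transcription factors and feedback inhibitors, within a short time of a hormone, cytokine or nutrient signal. Shortage of amino acids or stress in the endoplasmic reticulum is read through the transcription factor ATF4, whose targets include amino acid synthesis enzymes, amino acid transporters and tRNA synthetases.

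The libraries held 9276705 to 20580440 counts, the shallowest being liver SDY library 3. Summed markers matched the labelled tissue, with 8 hepatocyte genes at 36790 to 59210 CPM, the count relative to library size after TMM scaling over the 20 libraries, in SDY livers and 46430 to 78210 in control livers, against 5.52 to 31.6 in SDY intestines and 5.53 to 37.2 in control intestines. One of the 8, cps1, was not liver-specific here, with a mean of 4.70 CPM over livers and 7.48 CPM over intestines. Brush border genes of the enterocyte, the absorptive cell of the gut, ran the other way, at 11.9 to 36.4 CPM in SDY livers, 8.89 to 15.4 in control livers, 1823 to 3265 in SDY intestines and 1074 to 3297 in control intestines. A few libraries stood apart. Intestine control library 4 was the lowest of its group for all 11 tested members of the brush border list and the highest for 95 of 96 cell cycle genes, whereas over all tested genes it was lowest for 34.9% and highest for 31.7%. Liver SDY library 3 was the lowest of its group for 27.7% of all genes. Exocrine pancreas, which lies within the liver of this fish, was represented by 1 marker gene at 5337 to 30020 CPM over both liver groups. The same gene ran from 0.55 to 174 CPM in SDY intestines and from 0.41 to 683 CPM in control intestines, highest in control library 2. In such bulk samples, fewer cells of a type and less RNA per cell cannot be told apart.

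For each gene the diet effect was the log2 ratio of SDY to control in a tissue, and the tissue difference was the liver effect minus the intestine effect. A positive tissue difference therefore means that SDY raised the gene more, or lowered it less, in liver. Of 18871 genes tested, 0 (0.0%) had a tissue difference past an adjusted p of 0.05 in edgeR's quasi-likelihood test, and the lowest adjusted p was 0.196. The unadjusted p was under 0.05 for 912 genes (4.83%), of which 558 were higher in liver (2.96%) and 354 lower (1.88%). DESeq2, run on the same counts, called 6 genes, all higher in liver, among them fosl2, hemk1, socs3, trib1 and camk2n2. Leaving out liver SDY library 3 also gave 6 calls in edgeR.

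Within liver, 12 genes passed the adjusted threshold (0.0636%), 9 higher (0.0477%) and 3 lower (0.0159%) under SDY. In intestine the same fit called 0 genes (0.0%), with a lowest adjusted p of 0.0782. Unadjusted p-values under 0.05 were found for 1837 genes in liver (9.73%) and 1171 in intestine (6.21%). The directions were close to even in liver, with 925 higher (4.9%) and 912 lower (4.83%), and leaned to lower in intestine, with 340 higher (1.8%) and 831 lower (4.4%). Fitted with liver libraries alone, edgeR called 0 genes in liver. DESeq2 called 131 in liver and 32 in intestine. The liver count ran from 1 to 48 when single libraries were left out. It was 1 without liver SDY library 1 or 2 or liver control library 5, 2 without liver SDY library 4 or liver control library 1, and 48 without liver SDY library 3. Without intestine control library 4, unadjusted p-values under 0.05 numbered 3445 in intestine and 1417 for the tissue difference, with 0 genes past the adjusted threshold in either.

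**Figure D1:**
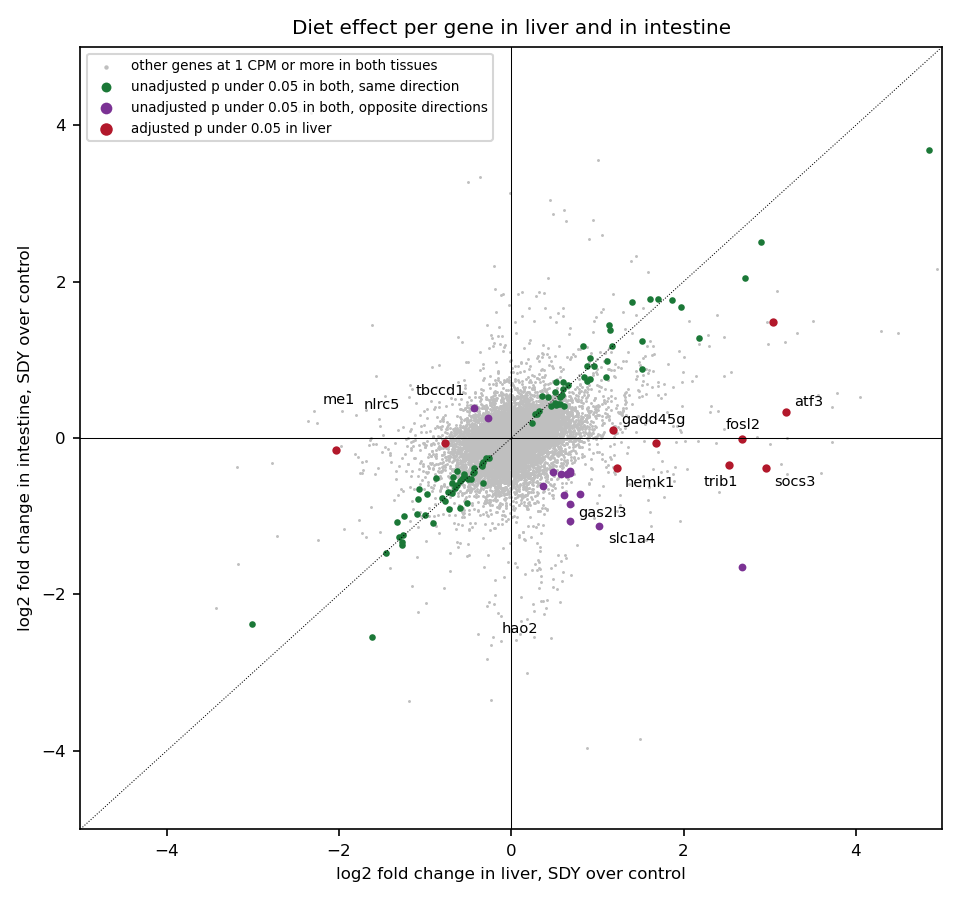
Each point is a gene with a mean of at least 1 CPM in both tissues, with its diet effect in liver on the horizontal axis and in intestine on the vertical axis, both as log2 of SDY over control; the dotted line marks equal effects. The labelled genes past the threshold in liver, fosl2, socs3, trib1, atf3, gadd45g and hemk1, lie to the right at intestine values between -0.39 and 0.33, and 7 genes beyond the axis limit of 5 are not shown.

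Among the 912 genes with an unadjusted p under 0.05 for the tissue difference, 504 also met that level in liver only, 275 higher and 229 lower under SDY. Another 216 met it in intestine only, 56 higher and 160 lower. The effects ran in opposite directions at that level in both tissues for 28 genes, 25 of them higher in liver and lower in intestine and 3 the reverse. In 3 genes both tissues met it in the same direction, and 161 met the level in neither tissue alone. Opposite effects made up 0.148% of all genes tested and same-direction effects 0.604% (114 genes), and no gene had libraries that were fully separated by diet in both tissues. Over all genes, 59.47% had the same sign in both tissues. Across the 13923 genes expressed in both, Pearson's r between the effects was 0.30, a description over genes that share libraries and scaling.

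Most of the named genes that rose in liver encode stress-induced or immediate-early transcription factors and feedback inhibitors. The smallest p was that of fosl2, which encodes a Fos-family partner of Jun in the AP-1 transcription factor and lies on chromosome 16 (26789045 to 26798313, plus strand, fSpaAur1.1). SDY livers held 83.5, 36.5, 18.6, 99.3 and 123 CPM of fosl2, against 10.9, 10.2, 8.72, 14.1 and 12.4 in control livers. SDY intestines held 28.1, 36.6, 33.5, 38.3 and 26.3 CPM, against 27.02, 36.7, 34.9, 36.2 and 29.3 in control intestines. All SDY livers lay above all control livers, while the intestine groups covered the same range. Its log2 change was 2.68 in liver (SE 0.35, adjusted p = 0.00657 in edgeR) and -0.01 in intestine (95% interval -0.70 to 0.67). The tissue difference was 2.69 (SE 0.47, adjusted p = 0.196), and the liver call held in 20 of 20 fits that left out a library. That call was lost with liver fitted alone. The tissue difference reuses the liver libraries and is not independent of the liver call.

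Cytokine feedback was represented by socs3, an inhibitor of JAK and STAT signalling on chromosome 23 (17939214 to 17941677, minus strand). Its level was 158.8, 69.2, 20.2, 152 and 126 CPM in SDY livers, against 12.2, 11.9, 14.8, 18.8 and 10.4 CPM in control livers. In intestine it was 24.7, 18.9, 15.7, 43.1 and 14.7 CPM under SDY, against 15.5, 22.7, 25.5, 68.9 and 19.8 CPM under control. The SDY livers were all higher than the control livers, library 3 by the smallest margin, and the intestine groups overlapped. The liver effect was 2.95 (SE 0.50, adjusted p = 0.0291 in edgeR) and the intestine effect -0.38 (SE 0.46), on the log2 scale. Another inhibitor of this family, cish, which acts on cytokine receptors that use STAT5, had 117, 82.4, 3.28, 113 and 143 CPM in SDY livers, against 2.27, 2.47, 8.03, 17.3 and 5.12 in control livers. Only SDY library 3 lay within the control range, and the liver effect of 3.72 (SE 0.75) missed the threshold, with an adjusted p of 0.0883 in edgeR. In intestine the cish effect was -0.06 (SE 0.66). Of the 11 cytokine signalling inhibitors tested, 2 had an unadjusted p under 0.05 in liver, both higher, beside 4.9% higher among all genes. In intestine 0 met that level, beside 6.21% of all genes.

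The pseudokinase gene trib1 (chromosome 3, 15664672 to 15672753, minus strand), whose product steers C/EBP transcription factors to degradation, had 49.4, 37.3, 7.94, 60.3 and 93.3 CPM in SDY livers, against 5.72, 6.01, 7.51, 14.8 and 9.41 in control livers. SDY library 3 lay inside the control range, and the other SDY livers were above it. SDY intestines held 13.1, 18.3, 14.3, 13.4 and 11.7 CPM, against 20.2, 22.2, 10.999, 13.9 and 22.4 in control intestines. The log2 effects were 2.52 in liver (SE 0.43, adjusted p = 0.0291 in edgeR) and -0.34 in intestine (SE 0.40). For atf3 (chromosome 22, 8388165 to 8392974, plus strand), a stress-induced transcription factor, SDY livers held 86.1, 53.6, 15.0, 80.2 and 67.9 CPM and control livers 6.63, 4.69, 5.44, 5.81 and 10.7. Every SDY liver was above every control liver. Intestine levels of atf3 were 17.5, 8.08, 15.5, 35.2 and 26.8 CPM under SDY, against 5.63, 8.02, 21.5, 38.0 and 8.67 under control, with full overlap. The liver effect was 3.19 (SE 0.55, adjusted p = 0.0291 in edgeR), and the intestine effect was 0.33 (SE 0.50).

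The stress-induced growth arrest gene gadd45g (chromosome 5, 27397470 to 27399177, minus strand) had 53.7, 36.0, 26.8, 35.9 and 31.4 CPM in SDY livers and 18.4, 12.3, 14.8, 18.6 and 17.3 CPM in control livers. These groups did not overlap. In intestine the means were 6.13 ± 1.33 CPM under SDY and 5.73 ± 0.79 CPM under control (SD, n = 5 each). The effect was 1.18 in liver (SE 0.19, adjusted p = 0.0291 in edgeR) and 0.10 in intestine (SE 0.19). SDY library 3 was the lowest SDY liver for all 6 named genes that rose. The calls of socs3, trib1, atf3 and gadd45g held in 12, 12, 11 and 14 of the 20 fits that left out a library, and all were lost with liver fitted alone. Each of these 20 fits that lost one of these calls left out a liver library. The 10 that left out a single intestine library, which hardly enters the liver effect, kept them all. The calls held in 8, 5, 7 and 8 of 9 other alternatives, in the same gene order. For trib1, the call was also lost in an alternative that left out intestine control libraries only (adjusted p = 0.052 in edgeR).

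**Figure D2:**
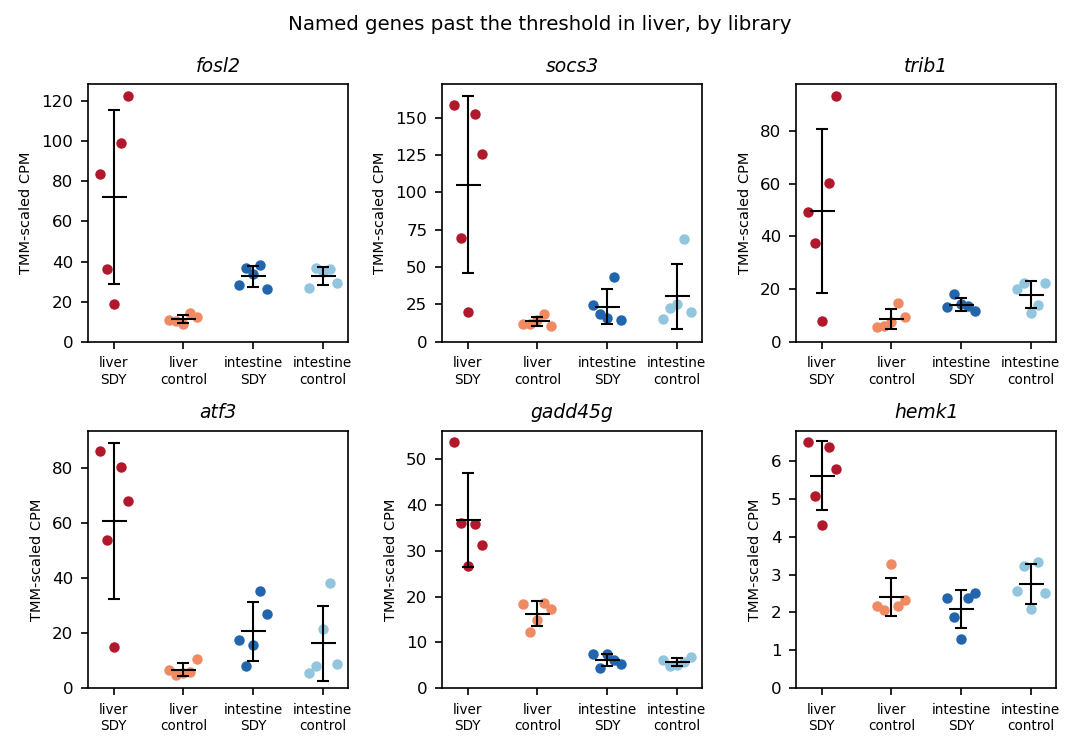
Levels in TMM-scaled CPM of the 6 named genes past the threshold in liver, 1 point per library, with the mean and SD of the 5 libraries of each group as bars. SDY livers average 72.1 CPM of fosl2 and 105 CPM of socs3 against 11.3 and 13.6 CPM in control livers, and the SDY and control intestines overlap for every gene.

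The last of the named liver genes, hemk1, encodes a methyltransferase related to enzymes that modify translation release factors. It had 6.49, 5.07, 4.32, 6.37 and 5.79 CPM in SDY livers, against 2.18, 2.06, 3.28, 2.17 and 2.33 in control livers, without overlap. SDY intestines held 2.37, 1.87, 1.31, 2.39 and 2.52 CPM, against 2.55, 3.23, 2.08, 3.32 and 2.51 in control intestines. The liver effect was 1.22 (SE 0.21, adjusted p = 0.0291 in edgeR), the intestine effect -0.39 (SE 0.21) and the tissue difference 1.61 (SE 0.30). The liver call held in 12 of the 20 fits that left out a library, and each of these 20 that lost it left out a liver library. It held in 6 of 9 other alternatives and was lost with liver fitted alone. On chromosome 6, hemk1 (17404532 to 17410093, minus strand) and cish (17401575 to 17404113, plus strand) face each other with their 3′ ends 418 bases apart. Reads were counted without regard to strand, and whether transcripts running on from cish were counted for hemk1 was not tested.

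The remaining 6 genes called in liver carry no name in the files. LOC115578912 on chromosome 3 averaged 0.96 ± 0.15 CPM in SDY livers and 0.08 ± 0.10 CPM in control livers, with no overlap, and its intestine effect was -0.28 (SE 0.37). LOC115584805 on chromosome 7 was the called gene with the smallest p among those that fell, at 1.15 ± 0.39 CPM in SDY livers and 4.71 ± 1.96 CPM in control livers. Its log2 effect was -2.03 in liver (SE 0.31, adjusted p = 0.0291 in edgeR) and -0.16 in intestine (SE 0.29). Some called genes moved the same way in intestine. LOC115588458 rose by 3.04 in liver (SE 0.52) and 1.48 in intestine (SE 0.48, unadjusted p = 0.0061 in edgeR). LOC115586830 averaged 0.07 CPM in SDY livers and 0.89 CPM in control livers. The effect of LOC115586830 was -3.78 in liver (SE 0.66) and -0.85 in intestine (SE 0.39, unadjusted p = 0.045 in edgeR). No other called gene had an unadjusted p under 0.05 in intestine. Of the 12 called genes, 10 had SDY and control livers that did not overlap, beside 0.503% (higher) and 0.768% (lower) of all genes. This separation is no independent support, since the genes were picked by p in the same livers. Among the 12, 6 had the same sign in intestine. The calcium/calmodulin kinase inhibitor gene camk2n2, called for the tissue difference by DESeq2, averaged 1.61 ± 1.34 CPM in SDY livers and 0.27 ± 0.07 CPM in control livers. Its liver effect of 2.58 (SE 0.50) had an adjusted p of 0.0695 in edgeR.

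Across the immediate-early list, 30 of 31 genes were tested, and 6 had a tissue difference at an unadjusted p under 0.05, all higher in liver, beside 2.96% of all genes. In liver 8 were higher and 0 lower at that level, beside 4.9% and 4.83% of all genes, and 3 were past the adjusted threshold, beside 0.0477%. In intestine 0 were higher and 1 lower, beside 1.8% and 4.4%. This list, like the others, was chosen with earlier results of these data known, so such counts are no independent support. The median effect was 0.37 in liver, -0.07 in intestine and 0.62 for the tissue difference, against 0.00, -0.01 and 0.03 over all genes. The tissue difference was 0.39 without intestine control library 3, and the liver median was 0.25 without liver SDY library 2. The intestine median lay between -0.126 and 0.035 when single libraries were left out. The growth regulator myc had 71.3, 27.4, 31.6, 24.9 and 36.2 CPM in SDY livers, against 11.7, 17.3, 13.7, 10.0 and 15.2 in control livers. Without overlap, its liver effect was 1.49 (SE 0.32, adjusted p = 0.128 in edgeR), and in intestine it was 0.24 (SE 0.34).

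Other immediate-early members differed in how their intestine values lay. The mRNA decay factor gene zfp36l2 averaged 89.1 ± 26.7 CPM in SDY livers and 42.0 ± 2.20 CPM in control livers, without overlap, and had an effect of -0.30 (SE 0.26) in intestine. For fosl1, a second Fos-family gene, the effects were 2.02 in liver (SE 0.55) and -0.03 in intestine (SE 0.54). The growth arrest gene gadd45b had positive values in both tissues, 1.53 in liver (SE 0.38) and 0.73 in intestine (SE 0.38). The MAP kinase phosphatase gene dusp1 was the member with an unadjusted p under 0.05 in intestine, where it averaged 30.5 ± 12.8 CPM under SDY and 53.5 ± 28.1 CPM under control, while its liver effect was 0.02 (SE 0.32). Without intestine control library 5 the intestine effect of dusp1 was -0.53, against -0.81 with it.

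Genes of the amino acid stress response controlled by ATF4 had higher values under SDY mainly in liver. Of the 22 tested, 9 had an unadjusted p under 0.05 in liver, all higher, beside 4.9% of all genes. In intestine 0 were higher and 1 lower at that level, beside 1.8% and 4.4% of all genes, and none passed the adjusted threshold in either tissue. The tissue difference met that level in 6, all higher in liver, beside 2.96% of all genes. The median effect was 0.73 in liver, 0.05 in intestine and 0.81 for the tissue difference. Intestine control library 4 held the highest control level for 13 of the 22, and without it the intestine median was 0.45 and the tissue difference 0.48. Without intestine SDY library 4 the intestine median was -0.17.

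Serine synthesis showed how that library entered. The gene for its first enzyme, phgdh, had 32.2, 39.5, 28.7, 61.5 and 24.4 CPM in SDY livers, against 9.27, 11.4, 3.02, 5.70 and 6.52 in control livers, with every SDY liver higher. SDY intestines held 4.93, 2.33, 2.67, 10.97 and 3.03 CPM, and control intestines 1.48, 1.40, 3.73, 16.9 and 1.35. In each intestine group library 4 was the highest. The effects were 2.38 in liver (SE 0.66, adjusted p = 0.23 in edgeR) and -0.07 in intestine (SE 0.63), and the tissue difference of 2.44 was 1.11 without intestine control library 4. The next enzyme gene of the pathway, psat1, showed 87.6, 31.8, 21.6, 51.3 and 27.3 CPM in SDY livers, against 3.36, 20.6, 1.12, 8.55 and 8.01 in control livers, and intestine control library 4 stood out again at 20.3 CPM beside 1.08 to 2.68 in the other control intestines. Intestine SDY library 4 held 21.4 CPM of psat1, beside 1.37 to 6.18 in the other SDY intestines. The tissue difference of psat1 did not meet an unadjusted p under 0.05 in edgeR. For asns, the asparagine synthetase gene, the liver effect was 1.34 (SE 0.55) and the intestine effect 0.38 (SE 0.55).

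The glutathione-degrading enzyme gene chac1, a target shared by ATF4 and endoplasmic reticulum stress, had 707, 244, 64.9, 695 and 134 CPM in SDY livers and 28.98, 206, 36.8, 58.2 and 40.5 CPM in control livers. The groups overlapped through control library 2. Its effect was 2.32 in liver (SE 0.60, adjusted p = 0.2 in edgeR), against 0.41 in intestine (SE 0.58). The stress-response gene nupr1 differed from these by its intestine values, 21.7, 29.4, 44, 18.9 and 13.9 CPM under SDY against 94.8, 51.0, 35.8, 34.5 and 77.3 CPM under control. Only SDY library 3 was above any control intestine. The effect was 0.13 in liver (SE 0.30) and -1.20 in intestine (SE 0.31, adjusted p = 0.642 in edgeR). Of 32 endoplasmic reticulum chaperone and unfolded protein response genes, 3 were higher in liver and 0 in intestine at an unadjusted p under 0.05, beside 4.9% and 1.8% of all genes. The tissue difference met that level in 0 of them, beside 4.83% of all genes. The medians were 0.26 in liver and 0.13 in intestine. The liver median was 0.42 without liver SDY library 3, the lowest SDY liver for 26 of the 32. The intestine median was 0.29 without intestine control library 4, 0.21 without intestine SDY library 2 and 0.08 without intestine SDY library 4.

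The tRNA synthetases and their cofactors, which load amino acids on tRNAs, had a median of 0.41 in liver and 0.16 in intestine over 34 genes. An unadjusted p under 0.05 was found for 8 in liver, all higher, beside 4.9% of all genes, and for 0 in intestine, beside 6.21%. The intestine median lay between 0.02, without intestine SDY library 4, and 0.41, without intestine control library 4, when single libraries were left out. The tryptophan enzyme gene wars1 averaged 60.4 ± 27.7 CPM in SDY livers and 24.5 ± 10.1 CPM in control livers, and had an intestine effect of 0.36 (SE 0.47). For the histidine enzyme gene hars1 the liver effect was 0.95 (SE 0.27) and the intestine effect 0.31 (SE 0.27). Intestine control library 4 was the highest control for 32 of the 34 genes, and the median tissue difference of 0.23 became -0.14 without it. For the tissue difference 1 of the 34 had an unadjusted p under 0.05, higher in liver, beside 2.96% higher among all genes. That member, the methionine enzyme gene mars1, averaged 161 ± 31.7 CPM in SDY livers and 100.1 ± 11.2 CPM in control livers. In SDY intestines mars1 averaged 50.4 ± 6.16 CPM, against 50.7 ± 7.54 CPM in control intestines. Its span overlaps ddit3, another ATF4-list gene, on the opposite strand, and reads of the pair could not be told apart.

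The genes nlrc5, me1, senp7 and smc5 had lower values in SDY livers and intestine effects between 0.03 and 0.35. The NOD-like receptor gene nlrc5, which drives MHC class I transcription in mammals, had 17.0, 7.74, 5.53, 6.37 and 4.34 CPM in SDY livers, against 9.63, 42.6, 9.49, 34.3 and 47.4 in control livers. SDY library 1 overlapped the controls, and the other SDY livers lay below them. SDY intestines held 81.0, 44.8, 64.1, 73.4 and 39.2 CPM and control intestines 49.6, 31.8, 57.5, 68.0 and 39.8. The effect was -1.81 in liver (SE 0.45, adjusted p = 0.177 in edgeR) and 0.29 in intestine (SE 0.42). The malic enzyme gene me1, which supplies NADPH for fatty acid synthesis, had 10.3, 8.85, 36.1, 15.0 and 10.9 CPM in SDY livers, against 145, 14.7, 166, 12.3 and 53.9 in control livers. Control libraries 2 and 4 were within the SDY range. The liver effect was -2.29 (SE 0.59, adjusted p = 0.2 in edgeR), and the intestine effect was 0.35 (SE 0.56).

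Smaller liver effects with smaller errors were seen in senp7, which encodes a SUMO protease, and in smc5, a subunit of the SMC5/6 complex that guards chromosomes during repair. senp7 averaged 12.4 ± 1.97 CPM in SDY livers and 18.6 ± 3.73 CPM in control livers, with an intestine effect of 0.09 (SE 0.14). smc5 averaged 24.997 ± 5.87 CPM in SDY livers and 39.7 ± 6.76 CPM in control livers, with an intestine effect of 0.03 (SE 0.15). The liver effects were -0.58 (SE 0.14) for senp7 and -0.67 (SE 0.16) for smc5. Neither passed the adjusted threshold in edgeR, with adjusted p of 0.177 for senp7 and 0.163 for smc5.

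Opposite effects in the tissues were small, or concerned genes of low level in intestine. The gene tbccd1, whose product is needed for centrosome and Golgi positioning in human cells, had the smallest p for the tissue difference among them. It had 7.998, 8.39, 9.498, 7.98 and 8.69 CPM in SDY livers, against 12.99, 9.47, 12.3, 11.5 and 11.2 in control livers. SDY intestines held 7.76, 7.53, 7.08, 6.36 and 6.64 CPM, against 4.55, 5.94, 5.45, 6.78 and 4.33 in control intestines. A single library crossed in each tissue, liver SDY library 3 by a narrow margin and intestine control library 4. The effect was -0.43 in liver (SE 0.13) and 0.39 in intestine (SE 0.13), giving a tissue difference of -0.82 (SE 0.19, adjusted p = 0.73 in edgeR).

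Of the 28 opposite genes, 25 had higher values in SDY livers and lower values in SDY intestines. The BMP receptor gene bmpr1b averaged 4.24 ± 0.66 CPM in SDY livers and 2.77 ± 0.85 CPM in control livers, against 2.28 ± 0.49 CPM in SDY intestines and 3.77 ± 1.53 CPM in control intestines. For gas2l3, a linker of actin and microtubules, SDY livers averaged 86.7 ± 29.8 CPM and control livers 54.2 ± 12.6 CPM, and SDY intestines 1.42 ± 0.58 CPM and control intestines 2.99 ± 1.68 CPM. The neutral amino acid transporter gene slc1a4 had 175, 65.3, 77.9, 91.4 and 69.8 CPM in SDY livers, against 29.1, 71.6, 28.2, 61.4 and 45.5 in control livers. SDY intestines held 0.76, 1.14, 1.07, 0.88 and 0.82 CPM of slc1a4, against 1.40, 3.59, 0.56, 3.86 and 0.73 in control intestines. Only control intestines 1, 2 and 4 were above the SDY intestines. Its effect was 1.02 in liver (SE 0.42) and -1.13 in intestine (SE 0.48), and the intestine effect was 0.06 without intestine control libraries 2 and 4, an alternative chosen after the data were seen. In control library 2 the summed hepatocyte markers stood at 0.0636% of the control liver mean and slc1a4 at 7.61% of its own. In control library 4 slc1a4 stood at 8.19%, while fgb, plg, cp and c8a, genes of proteins that the liver secretes, were at 0.00135% to 0.00412% of theirs. The summed markers there were 29.04 CPM, of which cps1 made up 23.9 CPM. The source of slc1a4 in these control intestines was not tested.

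**Figure D3:**
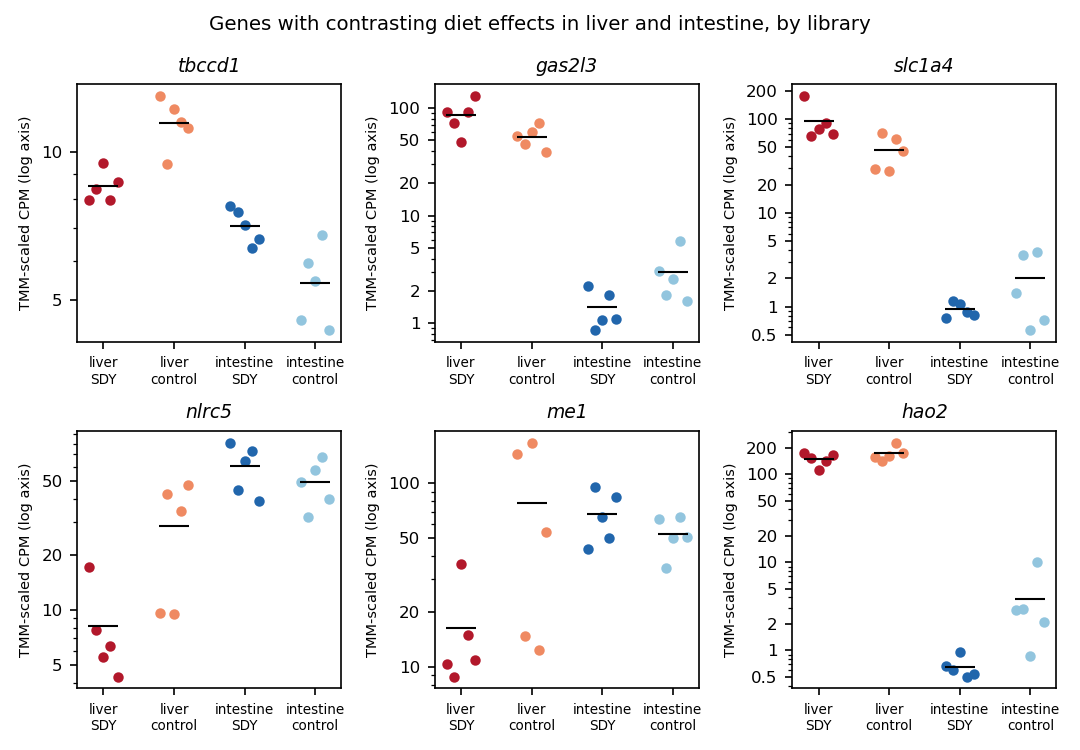
Levels in TMM-scaled CPM on log axes of 6 genes whose diet effects differed between liver and intestine at an unadjusted p under 0.05, 1 point per library, with the mean of each group as a line. tbccd1 averages 8.51 CPM in SDY livers and 11.5 CPM in control livers, against 7.08 CPM in SDY intestines and 5.41 CPM in control intestines, while hao2 averages 0.65 CPM in SDY intestines and 3.82 CPM in control intestines.

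In intestine the smallest unadjusted p-values among named genes belonged to genes with lower values under SDY. The peroxisomal hydroxyacid oxidase gene hao2 had 0.67, 0.59, 0.95, 0.50 and 0.54 CPM in SDY intestines, against 2.91, 2.99, 0.86, 10.2 and 2.11 in control intestines. Control library 3 lay inside the SDY range, and control library 4 was the highest. Its level averaged 150 ± 24.8 CPM in SDY livers and 174 ± 33.4 CPM in control livers. The effect was -0.21 in liver (SE 0.39) and -2.55 in intestine (SE 0.45, adjusted p = 0.194 in edgeR). The tissue difference of 2.34 was 1.54 without intestine control library 4. In that library hao2 stood at 5.89% of its control liver mean, against 0.00135% to 0.00412% for fgb, plg, cp and c8a. The source of hao2 there was not tested. The membrane protein gene fam189a1 averaged 1.102 ± 0.47 CPM in SDY intestines and 4.42 ± 1.75 CPM in control intestines without overlap. Its effect was -0.18 in liver (SE 0.40) and -2.0 in intestine (SE 0.37, adjusted p = 0.224 in edgeR).

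Proteins of the matrix or vessel wall are encoded by lama5, pxdn and pdgfrb, which had lower values in SDY intestines. The basement membrane laminin gene lama5 had 6.48, 0.96, 2.63, 1.92 and 4.87 CPM in SDY intestines, against 3.75, 18.7, 8.46, 25.3 and 23.3 in control intestines. Control library 1 lay within the SDY range. Its liver effect was -1.09 (SE 0.59), its intestine effect was -2.23 (SE 0.55, adjusted p = 0.59 in edgeR), and the tissue difference was 1.14 (SE 0.79). For pxdn, a peroxidase that crosslinks collagen IV, SDY intestines averaged 4.32 ± 0.86 CPM and control intestines 6.67 ± 0.64 CPM without overlap, and the liver effect was -0.14 (SE 0.14). The receptor gene of pericytes and fibroblasts, pdgfrb, averaged 14.9 ± 1.62 CPM in SDY intestines and 21.4 ± 2.25 CPM in control intestines, again without overlap, and its liver effect was -0.04 (SE 0.16).

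The lists of stromal genes had negative medians in intestine, without any member past the adjusted threshold. Over 22 endothelial genes the median effect was -0.01 in liver and -0.30 in intestine, where 21 were below 0 and 3 had an unadjusted p under 0.05, all lower, beside 4.4% lower among all genes. Of all 18871 genes, 9765 were below 0 in intestine. Over 41 matrix and fibroblast genes it was -0.06 in liver and -0.23 in intestine, with 35 below 0 and 4 lower at that level in intestine. Over 16 smooth muscle genes it was -0.02 in liver and -0.32 in intestine, with 13 below 0 and 2 lower at that level in intestine. The intestine medians stayed negative in each fit that left out a library, between -0.40 and -0.21 for endothelium, -0.34 and -0.16 for matrix and -0.42 and -0.22 for smooth muscle. Cytosolic ribosomal protein genes showed a shift of smaller size, with a median of 0.00 in liver and -0.15 in intestine, where all 69 were below 0. In either tissue 0 had an unadjusted p under 0.05, beside 9.73% of all genes in liver and 6.21% in intestine. Without intestine control library 2 that intestine median was -0.05. The summed fibroblast markers ran from 195 to 418 CPM in SDY intestines and from 297 to 361 CPM in control intestines. Summed endothelial markers ran from 34.7 to 53.3 CPM under SDY and from 36.5 to 69.5 CPM under control in intestine. For smooth muscle markers the sums were 724 to 1231 CPM and 977 to 1512 CPM. The part of these cell types in the list values was not tested.

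Fatty acid oxidation genes had positive effects in intestine and little effect in liver. Of 37 tested, 1 was higher and 1 lower in SDY livers at an unadjusted p under 0.05, beside 4.9% and 4.83% of all genes. In SDY intestines 8 were higher and 0 lower at that level, beside 1.8% and 4.4% of all genes. The median was -0.07 in liver and 0.28 in intestine, and the median tissue difference of -0.30 stayed between -0.37 and -0.25 when single libraries were left out. The liver median lay between -0.11 and 0.04 in those fits. The thiolase gene acaa2, the last step of the mitochondrial spiral, averaged 28.0 ± 5.27 CPM in SDY livers and 32.2 ± 11.1 CPM in control livers, against 89.2 ± 30.2 CPM in SDY intestines and 59.2 ± 17.9 CPM in control intestines. Its effect was -0.20 in liver (SE 0.26) and 0.59 in intestine (SE 0.26). For hadh, the step before it, the liver effect was -0.09 (SE 0.20) and the intestine effect 0.47 (SE 0.20). The peroxisomal enzyme gene hsd17b4 differed between tissues at an unadjusted p under 0.05 with a liver effect of -0.31 (SE 0.17) and an intestine effect of 0.30 (SE 0.17), neither at that level alone.

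The tissue difference was negative for 33 members, 3 of them at an unadjusted p under 0.05, beside 1.88% lower among all genes. It was positive for 4, and 1 of the 4 met that level, beside 2.96% higher among all genes. That gene, cpt1b, a carnitine palmitoyltransferase of the muscle type, had a tissue difference of 1.44 (SE 0.63) with 11.7 ± 5.77 CPM in SDY livers and 7.37 ± 3.71 CPM in control livers, against 0.60 ± 0.11 CPM in SDY intestines and 1.02 ± 0.47 CPM in control intestines. Outside the list, 2 genes were higher in SDY intestines by the smallest p. The lipid hydrolase gene abhd4 had 9.07, 11.5, 10.1, 12.2 and 11.99 CPM in SDY intestines, against 6.98, 5.07, 6.74, 7.51 and 5.68 in control intestines, without overlap, and averaged 17.3 ± 3.35 CPM in SDY livers and 15.1 ± 3.79 CPM in control livers. The UDP-glucose dehydrogenase gene ugdh, which makes the precursor for glucuronidation, averaged 112 ± 51.3 CPM in SDY intestines and 42.0 ± 12.5 CPM in control intestines. Its effects were 0.68 in liver (SE 0.37) and 1.41 in intestine (SE 0.38), in the same direction.

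**Figure D4:**
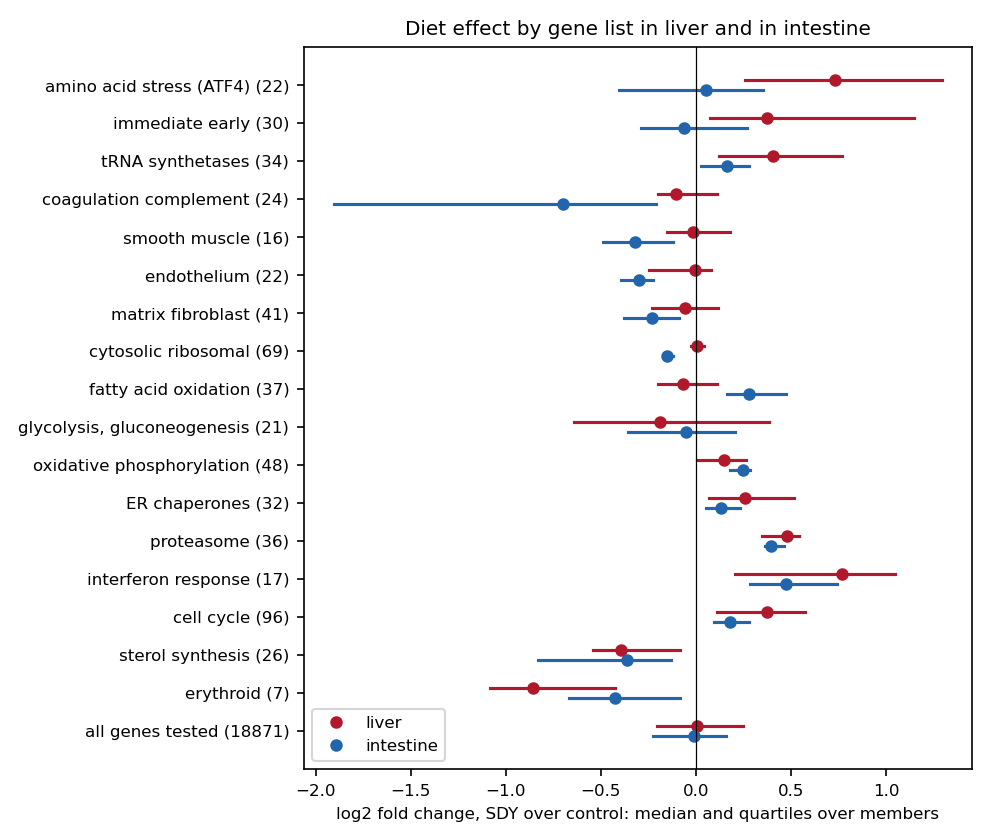
Median diet effect (point) and quartiles (line) of each gene list in liver and in intestine, as log2 of SDY over control, with the number of tested members in brackets and all 18871 tested genes in the bottom row. The liver and intestine medians lie 0.73 and 0.05 for the ATF4 list, -0.07 and 0.28 for fatty acid oxidation, and 0.48 and 0.39 for the proteasome.

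Several functions had median effects of the same sign in both tissues. The 36 proteasome genes had medians of 0.48 in liver and 0.39 in intestine, with a median tissue difference of 0.07, and none of them had opposite signs. Without intestine control library 4 the intestine median was 0.82 and the tissue difference -0.35. The intestine median was 0.23 without intestine SDY library 4, and the liver median 0.32 without liver SDY library 1. For 17 interferon response genes the medians were 0.77 in liver and 0.47 in intestine, and without liver SDY library 1 the liver median was 0.20. The sensors and antiviral enzymes dhx58 and cmpk2 had liver effects of 1.53 (SE 0.55) and 1.52 (SE 0.59), which were 0.63 and 0.69 without liver SDY library 1, and intestine effects of 1.02 (SE 0.53) and 1.24 (SE 0.58). Sterol synthesis genes had medians of -0.39 in liver and -0.36 in intestine over 26 genes, and the liver median was 0.20 without liver control library 4. The intestine median was -0.12 without intestine control library 4 and -0.16 without intestine control library 2. Signs were opposite in the tissues for 5 of the 17 interferon genes and 3 of the 26 sterol genes. Over all genes, 59.47% had the same sign in both. No member of these 3 lists differed between tissues at an unadjusted p under 0.05, beside 4.83% of all genes.

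The named genes with the clearest shared effect had lower values in both tissues. The sulfite oxidase gene suox, which ends the breakdown of sulfur amino acids, averaged 86.2 ± 23.2 CPM in SDY livers and 128 ± 33.7 CPM in control livers, against 3.26 ± 0.36 CPM in SDY intestines and 4.67 ± 0.48 CPM in control intestines. The effects were -0.57 (SE 0.18) in liver and -0.52 (SE 0.19) in intestine. For plat, tissue plasminogen activator, they were -0.45 (SE 0.16) and -0.45 (SE 0.15), with a tissue difference of 0.01 (95% interval -0.45 to 0.46). The glucocorticoid-induced gene glcci1 had -0.69 (SE 0.21) in liver and -0.58 (SE 0.20) in intestine. None of these passed the adjusted threshold in either tissue.

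Some tissue differences concerned genes made almost wholly by the other organ. Coagulation and complement genes had a median tissue difference of 0.96, with 6 of 24 higher at an unadjusted p under 0.05, beside 2.96% of all genes, and 9 lower in SDY intestines at that level, beside 4.4%. Without intestine control library 2 that median was 0.22 and the intestine median -0.25, against -0.70 with it. The fibrinogen gene fgb had 0.27, 0.46, 0.72, 0.50 and 0.24 CPM in SDY intestines, against 0.60, 12.2, 0.23, 0.27 and 0.55 in control intestines, beside 17024 CPM on average in SDY livers and 19992 CPM in control livers. Control intestine 2 alone was above the SDY range by more than the rest of the spread. The same library held the highest intestine level of plg (plasminogen, 1.12 CPM), cp (ceruloplasmin, 2.59 CPM) and c8a (a part of the complement pore, 0.997 CPM). These 4 levels were 0.0328% to 0.076% of their control liver means, and the summed hepatocyte markers stood there at 0.0636%.

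The reverse case was a set of intestinal genes in liver. The brush border list had a median effect of 0.98 in liver, which was -0.11 without liver SDY library 2, and a median tissue difference of 0.96, which was -0.04 without it. Its 11 tested members did not all move one way in liver, with 7 above 0 and 4 below. At an unadjusted p under 0.05, 2 were higher and 2 lower in liver, beside 4.9% and 4.83% of all genes. The tissue difference was higher for 2 and lower for 1 at that level, beside 2.96% and 1.88%. Sucrase-isomaltase, si, had 0.81, 13.5, 1.55, 0.14 and 0.17 CPM in SDY livers, against 0.82, 0.41, 0.09, 0.11 and 0.28 in control livers, and averaged 4138 CPM in SDY intestines and 5696 CPM in control intestines. SDY liver 2 held most of it. That library was also the highest liver for slc12a1 (a sodium, potassium and chloride cotransporter, 11.4 CPM) and cd36 (a fatty acid receptor, 5.07 CPM). The levels of these 3 genes there were 0.236% to 0.402% of the control intestine means. The summed brush border markers there were 36.4 CPM, of which the glucose transporter gene slc5a1, at 7.99 to 14.2 CPM in control livers, made up 27.7 CPM. The part of these traces in the tissue differences was not tested beyond leaving the libraries out.

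**Figure D5:**
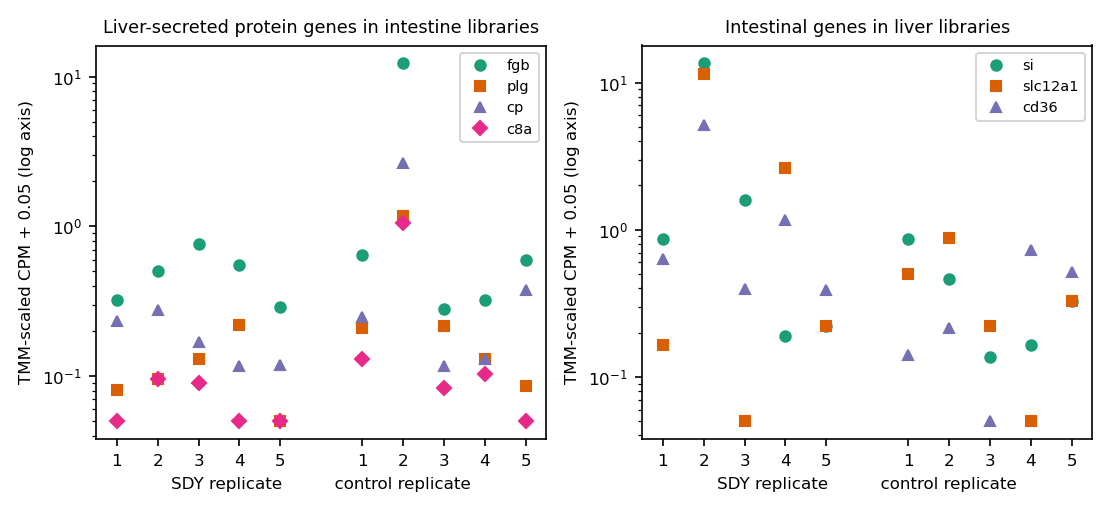
Left, levels of 4 genes of liver-secreted proteins in intestine libraries; right, levels of 3 intestinal genes in liver libraries, as TMM-scaled CPM plus 0.05 on a log axis, SDY replicates before control replicates. Intestine control library 2 holds 12.2 CPM of fgb and liver SDY library 2 holds 13.5 CPM of si, each the highest of its tissue.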

How the data were processed

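The authors deposited unnormalised read counts, and per the file headers they obtained them with featureCounts version 1.5.3. The headers name assembly fSpaAur1.1, sum features of type mRNA by gene, count a read over overlapping genes for each, and set no strand or paired-end option. The spans of 15.3% of genes overlap another, so reads may be shared there, and overlapping or antisense genes are uncertain. Trim Galore 0.4.4, FastQC, HISAT2 2.1.0 and DESeq2 were used, per the submitters' processing notes. RNA came from TRIzol extracts and poly(A)-selected directional libraries, per the labels' protocols.

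Of 25722 genes, 18871 passed filterByExpr over the 4 groups. edgeR 4.0.16 in R 4.3.3 scaled the 20 libraries by TMM, fitted 4 group means and tested 3 contrasts by quasi-likelihood, with Benjamini-Hochberg adjustment over all tested genes and a threshold of 0.05. SE comes from the F statistic, and intervals are 95%. Alternatives were DESeq2 1.42.0, limma 3.58.1 voom with group weights, other scalings and filters, each tissue alone, replicate blocks and leaving out each library. The tests were checked on simulated data. Libraries were not duplicates of one another (lowest chi-square per gene 41.44), and 0 columns were left unmapped. The head kidney libraries were not used here.

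The comparison, gene lists and naming rule were chosen with earlier results of these data known. Lists hold genes matched by symbol (10196 identifiers are symbols). Chromosomes come from the RefSeq table of the same assembly, which matched 18022 identifiers. Named genes were those with the smallest p for the tissue difference, for opposite and shared effects and for each tissue and direction, plus 2 per list, and an item that the rule picks is not reported here. Chosen after their values were seen were LOC115578912, LOC115584805, LOC115588458, LOC115586830, myc, fosl1, gadd45b, dusp1, psat1, asns, chac1, wars1, hars1, acaa2, hadh, dhx58, cmpk2, fgb and plg.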

Additional observations from a re-analysis of the deposited data

Results flagged for a closer look

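For 54 of the genes named in the report, 216 sets of 5 libraries were examined for a library that lay far from the other 4 of its group, and 26 libraries were found. Chance gives about 1 in 20 sets only for normally distributed values of genes picked without regard to them. These genes were named for their results, so the 26 cannot be set against that rate. Levels are in CPM.

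Intestine control library 4 held 68.9 of socs3, 16.9 of phgdh, 20.3 of psat1, 34.6 of asns, 62.2 of hars1 and 10.2 of hao2, each above the other control intestines. Intestine control library 2 held 2.11 of gadd45b, 12.2 of fgb, 1.12 of plg, 2.59 of cp and 0.997 of c8a. Among SDY intestines, library 4 held 21.4 of psat1 and library 3 held 52.6 of dusp1.

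Liver SDY library 2 held 13.5 of si, 11.4 of slc12a1 and 5.07 of cd36. Liver SDY library 1 held 71.3 of myc, 17.0 of nlrc5, 175 of slc1a4 and 77.3 of dhx58, and liver SDY library 3 held 36.1 of me1. Among control livers, library 4 held 190.0 of ugdh and 51.4 of acaa2, library 3 held 3.28 of hemk1 and 186 of suox, and library 2 held 206 of chac1. All of these were the highest of their groups.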

How the results depend on the processing

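The tissue difference had 0 calls in each alternative except DESeq2, with 6, and the fits that left out single libraries, which gave 0 to 6. Liver calls numbered 131 with DESeq2, 0 with each tissue fitted alone and 6 with the replicate number as a block, and 1 to 48 with single libraries left out. Intestine calls numbered 32 with DESeq2, 3 with limma voom and group weights, and 0 to 3 with single libraries left out. Same-numbered libraries did not deviate together in every pair of groups, so the numbers were not taken as pairs, and the block is given only here. Deviations of each SDY liver correlated most with those of a different SDY intestine. Livers 1, 2, 3, 4 and 5 went with intestines 5, 1, 2, 4 and 3, at r of 0.266, 0.226, 0.125, 0.184 and 0.098. SDY liver 1 correlated with SDY intestine 1 at -0.09. Among controls, livers 1 and 3 both correlated most with intestine 1, at 0.031 and 0.191. Whether libraries with different numbers came from 1 animal was not tested, and the tissue difference was fitted without such pairs. Leaving out intestine control libraries 2 and 4 together, chosen after the data were seen, gave an intestine effect of 0.064 for slc1a4. Its sign turned there, and that of the intestine effect of fgb turned when single libraries were left out, with a range of -2.94 to 0.094. The cause was not tested. Of 2793 recomputed gene effects, 2693 kept their direction and side of the threshold, 63 lost a call, 35 gained one and 2 turned sign. Keeping a side is a weak measure, since the tissue difference and the intestine had 0 calls in the main fit. Of 3240 list medians, 3195 moved by less than 1 SD of the list's mean level between replicates. Among these was the liver median of sterol synthesis, which went from -0.39 to 0.20 without liver control library 4. Scaling alternatives moved the median of all genes by less than 0.1 on the log2 scale. Genes under about 1 CPM rest on few reads and their effects are imprecise.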

Other observations

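The 96 cell cycle genes tested had a median diet effect of 0.37 in liver and 0.18 in intestine. In either tissue 0 had an unadjusted p under 0.05, beside 9.73% of all genes in liver and 6.21% in intestine. In each tissue 1 library of a group held most of the highest levels. Liver SDY library 2 was the highest SDY liver for 81 of the 96, intestine SDY library 4 the highest SDY intestine for 79, and intestine control library 4 the highest control intestine for 95. Without liver SDY library 2 the liver median was 0.01. Without intestine control library 4 the intestine median was 1.26 and the median tissue difference -0.80, against 0.17 with it.

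Erythroid genes, which mark red blood cells, were below 0 in liver for 7 of 7 tested, with 3 lower at an unadjusted p under 0.05, beside 4.83% of all genes, and a median of -0.86. In intestine the median was -0.42, and -0.25 without intestine control library 2. Control liver library 3 was the highest control liver for 7 of the 7, and the liver median lay between -1.03 and -0.60 when single libraries were left out. Their summed markers ran from 32.8 to 79.8 CPM in SDY livers and from 57.8 to 209 CPM in control livers. For 21 genes of glycolysis, gluconeogenesis and glycogen the medians were -0.19 in liver and -0.05 in intestine, with 1 higher and 5 lower in liver at an unadjusted p under 0.05, beside 4.9% and 4.83% of all genes. The liver median was -0.11 without liver SDY library 4 and -0.13 without liver control library 5, and the intestine median lay between -0.13 and 0.07 when single libraries were left out. Oxidative phosphorylation genes had medians of 0.14 in liver and 0.25 in intestine over 48 genes, and 45 of the 48 were above 0 in intestine, as were 9093 of all 18871 genes. The liver median was 0.005 without liver SDY library 1, 0.08 without liver control library 3 and 0.22 without liver SDY library 3, and the intestine median was 0.41 without intestine control library 4.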
